A study of Mus musculus with 30 samples.

Results

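Colon tissue of 2 cages of mice that carry the same strain label was compared by total RNA sequencing of the ascending colon. Each cage gave 5 libraries, so the comparison uses 10 of the 30 libraries of the study. The members are the ascending libraries whose labels give cage B or cage C. All mice were female, were labelled as having the same microbiota, and in cages B and C as a mixed background of C57BL/6 (BL/6) and 129SvJ. Cage B was 2.6 months old and held 3 controls and 2 mutants. Cage C was 3.2 months old and held 2 controls and 3 mutants. Mutants carried floxed C1galt1 (the core 1 O-glycan enzyme), the tamoxifen-inducible VillinCre-ERT2 recombinase, whose Villin promoter is active in intestinal epithelial cells, and homozygous loss of C3GnT (B3gnt6, the core 3 O-glycan enzyme). Controls were littermates that the protocol calls wild type, and control and mutant below name libraries as labelled. Tamoxifen was injected into both genotypes on 5 consecutive days (0.5 mg daily, or roughly 20 mg/kg). Tissue was taken 5 or 10 days after the last dose, without a label saying which time applies to which library. Cage, age and any unlabelled difference between the litters cannot be told apart. Whether libraries of one group came from separate mice is implied by the word littermates and is not stated for each library, so p-values measure the spread between these libraries. Cage A (C57BL/6 background, 3.4 months, 2 controls and 3 mutants) and the descending colon of cages B and C are given only beside the results.

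Values are FPKM, which are read numbers scaled to gene length and to the mapped reads of the library, and a difference is cage C minus cage B on the scale log2(FPKM + 1), averaged over the genotypes and given with its standard error (SE). This scale understates the change of genes near 0. A gene passed when limma, a linear model fitted to all genes with genotype as a covariate, gave an adjusted p (Benjamini-Hochberg) under 0.05. Libraries are named by cage, genotype and replicate number, as in B mutant 1.

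The class II molecules of the major histocompatibility complex (MHC) present peptides to helper T cells. Their alpha and beta chains are assembled with the invariant chain Cd74 and loaded with the help of H2-DM. Transcription of the whole group depends on the coactivator Ciita, which is recruited by factors bound to the X and Y boxes of class II promoters and is induced by interferon-gamma. Dendritic cells, macrophages and B cells express class II constitutively, and epithelial cells of the gut can express it too. Class I molecules present peptides to cytotoxic T cells and respond to interferons of both types.

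Libraries were broadly alike but 2 of cage B stood apart. Over 12205 genes each library's mean correlation with the other 9 was 0.931 in B control 1 and 0.949 in B mutant 1, and between 0.955 and 0.963 in the others. All 5 libraries of cage B correlated better with cage C than with each other, most of all B mutant 1 (0.959 against 0.938), whose closest library was C control 1 (0.971). In B control 1 the smooth muscle myosin Myh11 reached 43.4 FPKM, while the other 9 libraries had 0.96 to 11.64. Depth, estimated from the steps between low FPKM values, in mega-reads, was 3.42 to 6.69 in cage B and 3.41 to 7.76 in cage C (difference 0.969, exact permutation test within genotype, two-sided p = 0.33, the smallest possible being 0.01). B mutant 1 was the deepest library of its cage. C1galt1 was at 38.56, 44.81 and 36.27 FPKM in B controls 1 to 3, 18.57 and 29.93 in B mutants, 23.77 and 21.49 in C controls, and 18.26, 20.41 and 27.58 in C mutants. The controls of cage C were thus at the level of the mutants for the floxed gene. Since no source used here says which exons are removed, FPKM of the whole gene may not check the deletion. B3gnt6 was at 9.52 and 19.52 FPKM in B controls 1 and 2, and at 0.42 or less in the other 8 libraries, controls of cage C included. It was at 0.60 or less in all of cage A, so the level of this gene does not separate the libraries labelled control from those labelled mutant.

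No gene passed between the cages. Of 12205 genes tested by limma, 0 passed (0% called, lowest adjusted p = 0.106). At an unadjusted p under 0.05 there were 386 genes (3.16%), of which 175 were higher (1.43%) and 211 lower (1.73%) in cage C. The median difference over all genes was 0.02. In 36 genes (0.295%) every library of cage C lay above every library of cage B, and in 32 (0.262%) below. The 10 genes with the smallest p were 6 of the class II group (H2-Ab1, Cd74, H2-Aa, Ciita, H2-Eb1 and H2-DMa), the class I-like gene H2-T3, and Xpnpep2, Adora2b and Pla2g5.

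The class II genes made up most of the genes with the smallest p and were lower in cage C by several fold, without passing. The alpha chain gene H2-Aa was at 287.71, 244.03 and 102.56 FPKM in the controls of cage B and at 19.32 and 74.62 in its mutants. In cage C it was at 10.48 and 10.11 in controls and at 5.95, 8.36 and 14.60 in mutants. The cages did not overlap, although B mutant 1 (19.32) came close to C mutant 3 (14.60). The means were 146 ± 115 FPKM (SD, n = 5) and 9.90 ± 3.18 (n = 5), and the difference was -3.03 ± 0.50 (limma adjusted p = 0.228). Its partner, the beta chain gene H2-Ab1, was at 337.32, 232.71 and 132.85 FPKM in B controls, 40.23 and 94.82 in B mutants, 14.73 and 18.47 in C controls, and 9.63, 12.20 and 23.85 in C mutants. Here too every library of cage B lay above every library of cage C, with a difference of -2.85 ± 0.40 (adjusted p = 0.106). In bulk tissue, fewer cells of a type and less RNA per cell cannot be told apart. Cage A, where H2-Aa was at 183.64 to 295.60 FPKM and H2-Ab1 at 168.17 to 325.48, lay with the controls of cage B and far above cage C.

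Cd74, the invariant chain, had the highest mean FPKM of the class II list in cage B. It was at 1178.65, 885.47 and 615.83 FPKM in B controls and at 147.24 and 467.93 in B mutants. In cage C it was at 69.75 and 68.42 in controls and at 45.96, 66.46 and 113.46 in mutants. The cages did not overlap, and the difference was -2.76 ± 0.42 (limma adjusted p = 0.164). H2-Eb1, the beta chain of the second class II molecule, was at 275.88, 199.43 and 105.98 FPKM in B controls, 23.90 and 126.20 in B mutants, and 11.79 to 24.67 in the 5 libraries of cage C. Its cages overlapped by B mutant 1 alone (difference -2.48 ± 0.47, adjusted p = 0.432).

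The coactivator Ciita was low in level but not overlapping between the cages. It was at 5.94, 6.70 and 2.85 FPKM in B controls, 1.78 and 2.65 in B mutants, 1.10 and 0.96 in C controls, and 0.63, 0.41 and 1.15 in C mutants. Its difference was -1.22 ± 0.23 (limma adjusted p = 0.432). The 2 chains of the peptide loader H2-DM followed. H2-DMa was at 5.77 to 22.25 FPKM in cage B and 2.03 to 6.03 in cage C (-1.38 ± 0.28, adjusted p = 0.545), and H2-DMb1 at 4.12 to 31.85 and 0.96 to 5.85 (-2.16 ± 0.47, adjusted p = 0.784). In both genes the lowest library of cage B was B mutant 1, the only one that fell within the range of cage C. The annotation of H2-DMa overlaps that of Brd2, and no source used here says whether counting used strand. H2-DMb2, a near copy of H2-DMb1 whose reads may be shared with it, was at 0.00 to 3.45 FPKM and 0.34 to 1.35 (-0.38 ± 0.40).

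The genes of the X box factor were slightly above 0. Rfx5, the DNA-binding subunit, differed by 0.21 ± 0.17, Rfxank by 0.16 ± 0.15 and Rfxap by 0.15 ± 0.17, all 3 with overlapping cages, and Rfx5 by -0.06 in mutants. Ctss, the protease that trims the invariant chain, was at 197.77 to 351.18 FPKM in cage B and 240.64 to 320.43 in cage C (0.22 ± 0.19). In all, 14 of the 15 genes of the class II list were in the table and 12 were kept, since H2-Ob and H2-Eb2 were below the filter of a mean of 0.5 FPKM. None of the 12 passed, 7 were lower at an unadjusted p under 0.05 (1.73% of all genes), and 4 of these did not overlap (0.262% of all genes). The list's median was -1.30, against 0.02 over all genes.

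**Figure D1:**
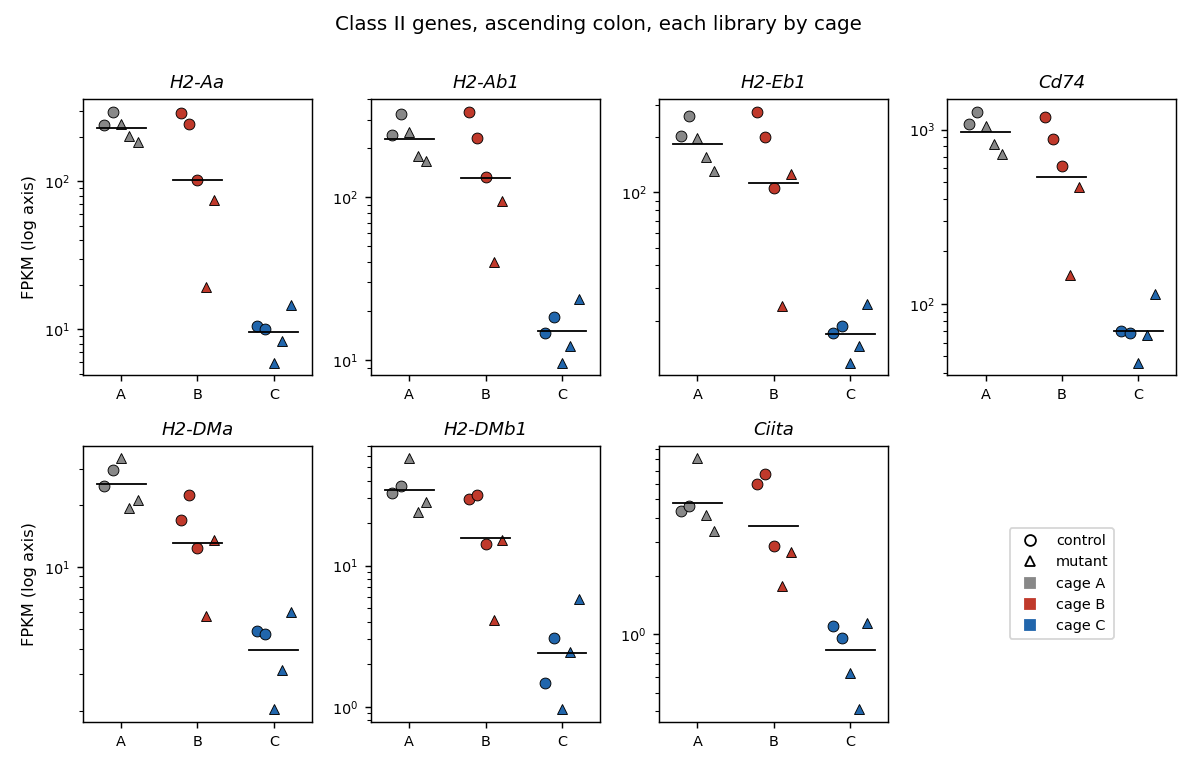
FPKM of 7 class II genes in each ascending library (circles, controls; triangles, mutants) by cage, on log axes that differ between panels; the bar is the mean of the log2 values turned back to FPKM. The bar of cage C lies below those of cages A and B in each panel. The lowest triangle of cage B is B mutant 1, at 19.32 FPKM for H2-Aa. For H2-Eb1, H2-DMa and H2-DMb1 that triangle lies within the range of cage C.

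Promoters of class II genes are printed to show the boxes named above, with the window running from 250 bases before the annotated start to 50 after it (RefSeq, GRCm38.p6). Of 9 class II genes looked up, 7 had an entry; H2-Ab1 and Ciita had none. Capitals mark the Y box (GATTGG on either strand, read as CCAATC on the other) and the run AACTGATGATGCT, which is the longest that the H2-Eb1 and H2-DMb1 promoters share, searched on both strands. It lies upstream of the Y box, where class II promoters have their X box. The motifs do not overlap each other. The windows are chr17:34287774-34288073 (minus strand) for H2-Aa, chr17:34305617-34305916 (plus) for H2-Eb1 and chr17:34152941-34153240 (plus) for H2-DMb1.
H2-Aa: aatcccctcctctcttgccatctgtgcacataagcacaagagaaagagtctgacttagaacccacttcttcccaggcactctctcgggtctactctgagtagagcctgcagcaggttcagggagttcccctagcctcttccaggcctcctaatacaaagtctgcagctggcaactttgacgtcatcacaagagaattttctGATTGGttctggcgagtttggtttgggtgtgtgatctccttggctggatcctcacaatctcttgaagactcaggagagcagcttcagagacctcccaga
H2-Eb1: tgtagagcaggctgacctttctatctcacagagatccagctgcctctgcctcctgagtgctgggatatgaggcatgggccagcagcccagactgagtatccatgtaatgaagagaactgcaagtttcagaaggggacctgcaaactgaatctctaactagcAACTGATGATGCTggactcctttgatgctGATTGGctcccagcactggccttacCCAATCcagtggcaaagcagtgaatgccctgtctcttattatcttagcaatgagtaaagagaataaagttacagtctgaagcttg
H2-DMb1: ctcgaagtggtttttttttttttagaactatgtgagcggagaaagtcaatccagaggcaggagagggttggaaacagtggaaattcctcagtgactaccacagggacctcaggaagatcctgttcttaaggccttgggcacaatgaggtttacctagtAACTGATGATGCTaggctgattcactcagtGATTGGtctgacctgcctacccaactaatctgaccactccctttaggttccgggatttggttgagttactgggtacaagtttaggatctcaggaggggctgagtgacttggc

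The Y box begins 49 bases before the start in H2-Aa, 62 in H2-DMb1, and 60 and 35 in H2-Eb1, where the second match is on the other strand. The run AACTGATGATGCT begins 89 bases before the start in H2-Eb1 and 92 in H2-DMb1. The 7 class II genes had 8 promoters in the table. Of these 8, 7 held GATTGG in the window, as did 16.1% of the 32851 promoters, and the exception was 1 of 2 entries of H2-DMa. The run AACTGATGATGCT was in the 2 promoters it was taken from and in no other of the 8, and in 0.00913% of all promoters (3 promoters). A match describes letters in a window and is neither a site nor a cause.

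On chromosome 17 the neighbours of the class II genes differed far less. H2-Ab1 (34257689 to 34269419), H2-Aa (34282744 to 34287823) and H2-Eb1 (34305867 to 34316674, GRCm38) lie next to each other. Between them and the H2-DM genes lie Psmb9, Tap1, Psmb8 and Tap2, which cut and transport peptides for class I. These 4 differed by 0.10 ± 0.26, -0.04 ± 0.24, -0.15 ± 0.29 and 0.16 ± 0.19, in the order of the chromosome. On the outer sides Brd2, a chromatin reader, differed by 0.13 ± 0.17, and the butyrophilin-like genes Btnl2 and Btnl1 by -0.01 ± 0.13 and 0.07 ± 0.17. Cd74 lies on chromosome 18 and Ciita on chromosome 16, so lower members lay outside the MHC too.

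**Figure D2:**
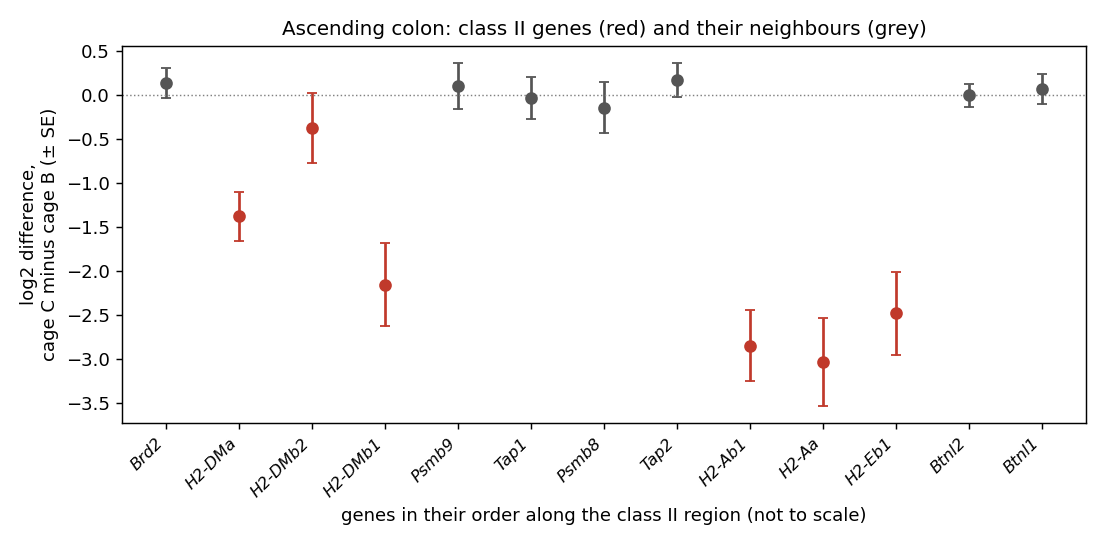
Log2 difference (cage C minus cage B, ± SE, 5 libraries each) for the kept genes of the class II region in chromosome order, not to scale; class II genes in red, others in grey. H2-Ab1, H2-Aa and H2-Eb1 lie at -2.85, -3.03 and -2.48, while the 4 peptide-processing genes beside them lie between -0.15 and 0.16.

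Whether class II genes passed depended on B mutant 1 and on other settings of the fit. Without it 5 of 12182 genes passed (0.041%), all lower in cage C: Cd74 (-3.28 ± 0.31, limma adjusted p = 0.00548), H2-Eb1 (-3.11 ± 0.30, 0.00548), H2-Aa (-3.65 ± 0.37, 0.00709), H2-Ab1 (-3.27 ± 0.35, 0.00725) and Gcg (-1.60 ± 0.20, 0.0245), the glucagon gene of enteroendocrine cells. Then 7 of the 12 class II genes did not overlap and were lower, against 1.02% of all genes (1.29% higher). B mutant 1 alone had caused the overlap in H2-Eb1, H2-DMa and H2-DMb1. Leaving it out thus had to raise this count, which is no separate support. At an unadjusted p under 0.05, 8 class II genes were lower and 2 higher, against 5.46 and 8.17% of all genes. When all 15 ascending libraries were fitted, so that cage A added to the estimate of the spread, H2-Aa, H2-Ab1, H2-Eb1 and Cd74 passed as well, with Xpnpep2. With array quality weights and all 10 libraries the same class II genes passed, as did Ciita, H2-DMa, H2-DMb1 and genes outside the list. Why B mutant 1 was low in class II RNA was not tested.

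The 5 class II genes with the smallest p were lower in cage C in both genotypes as labelled. B controls 1 and 2, the libraries highest in B3gnt6, were also the highest in these genes. The control difference thus includes that split beside cage. H2-Aa differed by -4.10 in controls and -1.96 in mutants, H2-Ab1 by -3.65 and -2.05, Cd74 by -3.62 and -1.89, H2-Eb1 by -3.26 and -1.71, and Ciita by -1.54 and -0.90. Tested as a cage by genotype interaction over the 10 libraries, the gap was 2.14 ± 0.82 for H2-Aa (unadjusted p = 0.0258, limma adjusted p = 0.357) and 1.74 ± 0.71 for Cd74 (unadjusted p = 0.0338, adjusted p = 0.362), so it did not pass. Without B mutant 1, which leaves 1 mutant in cage B whose spread is taken from the other groups, the mutant difference of H2-Aa was -2.91 and the gap 1.19 ± 0.72 (limma adjusted p = 0.833). For Cd74 they were then -2.72 and 0.91 ± 0.61. Ctss, also on the list, was below 0 in controls (-0.07) and above in mutants (0.51). Interaction p-values under 0.05 were common, at 13.1% of genes (1602 of 12205, 2.6% higher and 10.5% lower), and 0 genes passed (limma, lowest adjusted p = 0.351). The split of 317 higher and 1285 lower depended on scaling. With median-of-ratios scaling, which moved the median interaction of all genes from -0.14 to 0.03, it was 743 higher and 627 lower. Without B mutant 2 the interaction rests on B mutant 1 as the only mutant of its cage, and 92 genes passed higher and 227 lower. The 5 genes with the smallest interaction p were Eno1b, Slc16a1, Dcdc2b, Fv1 and Dapk1. Slc16a1, a transporter of lactate and butyrate, was at 71.39 to 104.17 FPKM in B controls, 58.06 and 63.25 in B mutants, 42.10 and 38.36 in C controls, and 84.96 to 120.46 in C mutants (interaction 1.74 ± 0.30, adjusted p = 0.351).

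For the cell types that express class II constitutively, the median of macrophage and dendritic cell markers was near 0 in the ascending colon. The median of the B and plasma cell list was below 0. The 16 macrophage and dendritic cell markers in the table summed to 40.7 to 85.3 FPKM in cage B and 33.2 to 93.1 in cage C. The 11 kept had a median difference of 0.07 with 8 above 0 (55.8% of all genes). Their median was -0.05 without C mutant 2 and 0.17 without B mutant 2. In the descending colon it was -0.31, with 11 of 11 below 0, as were 4784 of 12128 genes there. At an unadjusted limma p under 0.05, 2 of them were lower there (1.89% of all genes), and 0 passed. Csf1r, the macrophage growth factor receptor, was at 1.15 to 2.65 FPKM in cage B and 0.77 to 2.93 in cage C, and the dendritic cell factor Zbtb46 at 0.30 to 0.81 and 0.16 to 0.76. The 14 genes of the B and plasma cell list, not all of them particular to these cells, summed to 2.51 to 23.1 FPKM in cage B. In cage C they summed to at most 8.39. The 5 kept, which include the chemokine Ccl20 besides Jchain, Cd79a and Cd79b, had a median of -0.58 with 4 below 0 (44.2% of all genes). That median was -0.24 without B mutant 2, -0.86 without B mutant 1, and -1.17 without B control 1 and B mutant 1. Without B mutant 1 all 5 were below 0, as were 5542 of 12182 genes. The B cell gene Ms4a1 was at 0.57 or less in all 10, and the B cell receptor chain Cd79a was at 1.68 and 2.98 FPKM in B control 2 and B mutant 2 and at 1.11 or less elsewhere. The part of these cells in the class II difference was not tested.

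T cell markers were lower in cage C by sign in 19 of the 20 kept (44.2% of all genes), with a median of -0.34. The median was -0.20 without B mutant 2. At an unadjusted p under 0.05, 3 were lower (1.73% of all genes), and none passed. Ccl5, a chemokine of cytotoxic lymphocytes, was at 10.31, 23.57, 28.55, 8.18 and 14.41 FPKM in cage B (controls, then mutants) and at 6.94, 12.41, 5.30, 4.07 and 10.39 in cage C (-0.85 ± 0.32). Gzma, a granzyme, was at 4.63 to 34.47 and 2.65 to 8.82 FPKM (-1.01 ± 0.49). Both cages overlapped in both genes. The 22 markers in the table summed to 41.5 to 141 FPKM in cage B and 25.1 to 74.8 in cage C, and their part in the class II difference was not tested.

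Interferon-gamma targets lay on both sides of 0. Of 25 interferon-gamma targets kept, 11 were above 0 and 14 below, with a median of -0.03, and 2 were lower at an unadjusted p under 0.05 (1.73% of all genes). Without B mutant 1 the median was -0.13, with 17 below 0 and 5 lower at that p (5.46% of all genes), and without C control 2 it was 0.08. The 2 were Ido1, an enzyme that degrades tryptophan, and Tgtp2, an immunity-related GTPase. Ido1 was at 2.86, 5.56 and 6.83 FPKM in B controls, 3.84 and 17.69 in B mutants, 1.33 and 1.44 in C controls and 2.40 to 3.14 in C mutants (-1.33 ± 0.32, limma adjusted p = 1.00). Only B control 1 lay within the range of cage C. Tgtp2, whose reads may be shared with its near copy Tgtp1, was at 1.16 to 3.90 and 0.00 to 2.35 FPKM (-0.97 ± 0.32). The receptor genes Ifngr1 and Ifngr2 differed by 0.01 ± 0.14 and 0.32 ± 0.15, and none of the 14 signalling genes kept had an unadjusted p under 0.05.

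Class I genes were on both sides of 0. Of 22 kept, 7 were above 0 and 15 below, with a median of -0.09. The median was -0.34 in controls, 0.21 in mutants and -0.24 without B mutant 1. In the descending colon it was -0.40, with 10 of 22 lower at an unadjusted p under 0.05 (1.89% of all genes there), of which none passed, and 4 lower without overlap (0.536%). The main class I gene H2-K1 was at 323.18 to 578.77 FPKM in cage B and 290.32 to 428.26 in cage C (-0.28 ± 0.20), and B2m, the light chain, at 864.65 to 2243.09 and 957.32 to 1448.68 (-0.19 ± 0.26). The 2 members with an unadjusted p under 0.05 went opposite ways. H2-T3, which encodes the thymus leukaemia antigen of gut epithelium, was at 24.94, 30.92, 34.55, 27.74 and 36.66 FPKM in cage B and at 45.95, 57.23, 47.42, 53.05 and 44.85 in cage C. Its cages did not overlap (0.67 ± 0.14, limma adjusted p = 0.729). H2-Q6 was at 16.29 to 39.22 and 9.54 to 19.54 FPKM (-0.71 ± 0.22). Both belong to families of near copies whose reads the counting could split, so these values are uncertain.

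Interferon-stimulated antiviral genes were above 0 in 44 of 50 cases, against 55.8% of all genes, with a median of 0.33, yet 1 was higher and 1 lower at an unadjusted p under 0.05. These shares are near those of all genes (1.43 and 1.73%). Irf9, a subunit of the factor that switches on such genes, was at 11.53 to 20.82 FPKM in cage B and 15.71 to 26.73 in cage C (0.39 ± 0.16), and Isg20, an RNA nuclease, at 3.94 to 8.45 and 2.36 to 4.34 (-0.45 ± 0.19). The median was 0.13 without B mutant 1, 0.19 without B control 2, 0.52 without B control 1, 0.05 in controls alone and 0.58 in mutants alone. Isg15, a ubiquitin-like modifier, was at 517.90, 40.99 and 106.17 FPKM in B controls and 12.19 and 82.56 in B mutants, and at 100.92 and 74.30 in C controls and 58.74, 85.93 and 164.88 in C mutants. Both its highest and its lowest values were in cage B (0.46 ± 0.73), and its difference was -0.30 without B mutant 1, -0.60 in controls and 1.00 without B control 1. Ifit3, of the same list, was at 8.5 to 68.06 and 22.22 to 53.33 FPKM (0.81 ± 0.40), again with cage C inside the range of cage B.

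**Figure D3:**
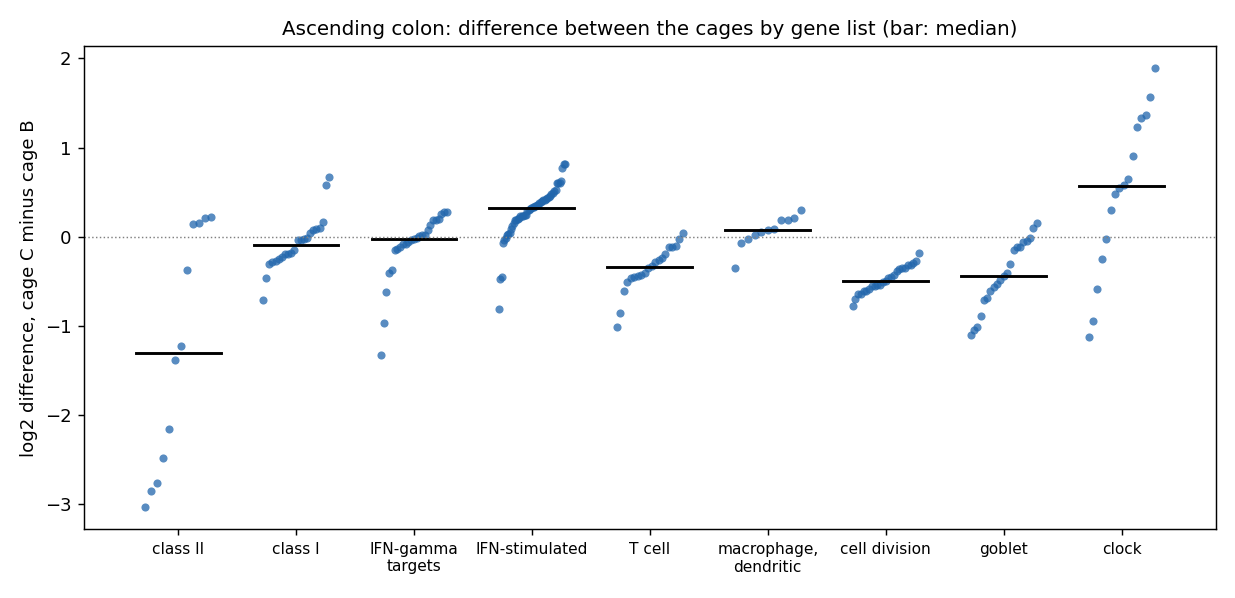
Log2 difference (cage C minus cage B) of each kept gene of 9 lists, sorted within a list, with the list's median as a bar. The 7 class II genes lower at an unadjusted limma p under 0.05 lie from -1.22 to -3.03. Of the other kept members, H2-DMb2 lies at -0.38 and 4 lie above 0. The medians of class I genes and interferon-gamma targets are -0.09 and -0.03.

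Genes of the circadian clock lay on both sides of 0, with Dbp, Tef and Per genes higher and Nfil3 and Arntl lower in cage C, none of them passing. Clock and Npas2 pair with Arntl (BMAL1) to activate the Per, Cry and Nr1d genes and the PAR bZIP factors Dbp and Tef, which bind D boxes, while Nfil3 binds the same boxes as a repressor. No source used here gives the time of day of collection. Of 16 clock genes kept, 0 passed (limma). At an unadjusted p under 0.05, 8 were higher and 2 lower (1.43 and 1.73% of all genes), and the list's median was 0.57. It was between 0.34 (without C control 2) and 0.66 (without C mutant 3) with any 1 library left out, and 0.45 without B control 1.

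Dbp was at 2.23, 12.75 and 13.19 FPKM in B controls, 9.06 and 11.25 in B mutants, 20.28 and 67.18 in C controls, and 44.70, 37.08 and 22.43 in C mutants. The cages did not overlap, and B control 1 was the lowest (1.89 ± 0.45, limma adjusted p = 1.00). Tef was at 1.79 to 10.84 FPKM in cage B and 10.70 to 34.17 in cage C (1.37 ± 0.41), and the period gene Per3 at 2.06 to 6.64 and 5.45 to 24.35 (1.33 ± 0.37). Per2 was at 2.86 to 5.24 and 4.25 to 23.46 FPKM (1.24 ± 0.39), and Ciart, a repressor of the clock activators, at 0.00 to 1.71 and 1.25 to 11.78 (1.56 ± 0.48). In these 4 genes the lowest library of cage C was C mutant 3, which caused the overlap alone in Tef, Per3 and Per2 and with C control 1 in Ciart.

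The repressor Nfil3 and the activators Arntl and Npas2 were lower, Npas2 with a p above 0.05. Nfil3 was at 6.76, 5.97, 8.24, 4.08 and 4.32 FPKM in cage B and at 3.45, 1.38, 1.03, 1.16 and 3.40 in cage C, with no overlap (-1.12 ± 0.25, limma adjusted p = 0.797). Arntl was at 3.70 to 17.54 FPKM in cage B, where B control 1 was highest, and 1.37 to 6.22 in cage C (-0.95 ± 0.40). Npas2 was at 12.40 to 27.09 and 8.16 to 18.97 FPKM (-0.58 ± 0.27, unadjusted p = 0.0539), again with overlap. Cage A, with Dbp at 1.18 to 4.85 FPKM and Nfil3 at 5.06 to 13.00, lay level with cage B or farther from cage C. In the descending colon Dbp differed by 1.45 ± 0.57 and Nfil3 by -0.39 ± 0.25. The interactions with region, fitted with libraries taken as independent, had unadjusted limma p-values of 0.585 and 0.0625.

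**Figure D4:**
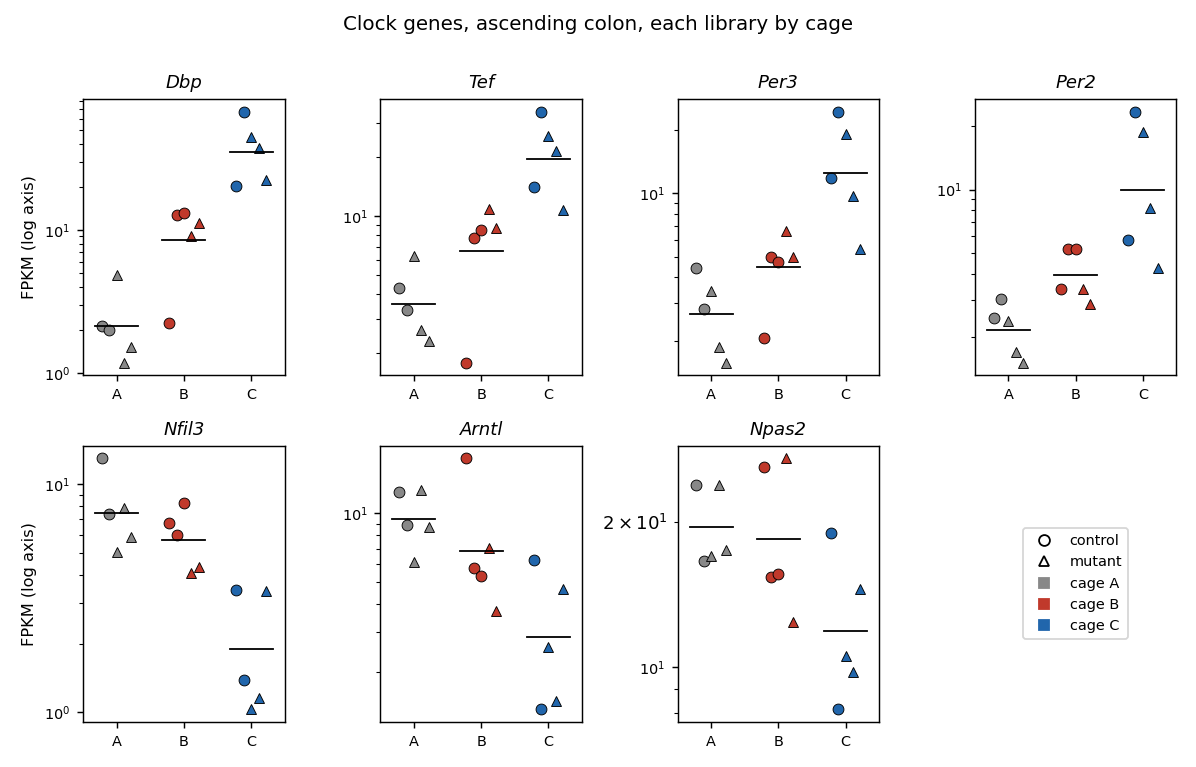
FPKM of 7 clock genes in each ascending library (circles, controls; triangles, mutants) by cage, on log axes that differ between panels; the bar is the mean of the log2 values turned back to FPKM. Dbp, Tef, Per3 and Per2 are highest in cage C and Nfil3, Arntl and Npas2 lowest there, and for Dbp and Arntl B control 1 is the extreme of cage B (2.23 and 17.54 FPKM).

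The Per3 promoter (chr4:151044616-151044915, minus strand) is shown for its D boxes, TTATGNAA on either strand, in capitals. Of 18 clock genes looked up 15 had an entry, with 20 promoters in all. Of these 20, 2 (that of Per3 and 1 of 2 of Per1) held a D box, as did 3.38% of all promoters of the same length, and 6 held the E box CACGTG, as did 7.15%.
Per3: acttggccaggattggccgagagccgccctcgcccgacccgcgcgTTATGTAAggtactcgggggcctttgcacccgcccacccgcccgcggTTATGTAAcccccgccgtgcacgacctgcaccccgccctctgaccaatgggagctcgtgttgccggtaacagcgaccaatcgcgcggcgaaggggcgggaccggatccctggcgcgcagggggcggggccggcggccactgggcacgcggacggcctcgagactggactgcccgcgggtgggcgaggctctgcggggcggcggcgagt

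The D boxes begin 205 and 158 bases before the start of Per3. They describe letters in a window, and no factor was measured on them.

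Cell division genes were lower in cage C by sign in 25 of 25 cases, against 44.2% of all genes, with a median of -0.49. None passed, and 13 had an unadjusted p under 0.05 (1.73% of all genes, lower). Nusap1, a spindle protein, was at 1.99, 3.05 and 3.74 FPKM in B controls, 3.64 and 5.78 in B mutants, 1.98 and 1.14 in C controls, and 2.3, 2.65 and 2.57 in C mutants (-0.65 ± 0.17, limma adjusted p = 1.00). Only B control 1 lay inside the range of cage C. Cdk1, the mitotic kinase, was at 2.89 to 8.10 and 1.69 to 3.08 FPKM (-0.70 ± 0.22), Ccnb2, its cyclin, at 8.81 to 27.02 and 4.01 to 12.10 (-0.77 ± 0.25), and Mki67, the Ki-67 antigen, at 18.41 to 35.60 and 12.69 to 24.10 (-0.47 ± 0.18). In these 3 genes B mutant 2 was the highest library and C control 2 the lowest. The median was -0.33 without B mutant 2 and -0.62 without B mutant 1.

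Genes of the goblet cell, enteroendocrine and defence lists were mostly below 0 as well. Of 21 goblet cell genes, 19 were below 0 (44.2% of all genes), with a median of -0.44, and 2 had an unadjusted p under 0.05 (1.73% of all genes, lower), with 0 passing (limma). Clca1, a protease of mucus, was at 154.20, 300.32, 493.36, 288.13 and 287.64 FPKM in cage B and at 108.11, 131.81, 203.15, 102.07 and 156.55 in cage C (-1.10 ± 0.30, limma adjusted p = 1.00). The cages overlapped through B control 1. Zg16, a lectin that binds bacteria in mucus, was at 306.55 to 1295.65 and 238.83 to 481.13 FPKM (-1.01 ± 0.38). The median was -0.28 without B mutant 2 and -0.64 without B control 1, whose goblet genes summed to 3953 FPKM, the lowest of the 10. Enteroendocrine genes were below 0 in 14 of 17 cases (median -0.39, 2 at an unadjusted p under 0.05), against the same shares of all genes. Genes of the defence list were below 0 in 19 of 24 (median -0.24, 1), against those shares too. That list is not limited to secretory cells or to antimicrobial proteins, and includes Nox1 and S100g. The enteroendocrine median was -0.21 without B control 2, -0.59 without B control 1 and -0.10 in controls. The defence median was -0.07 without C control 2 and -0.15 without C mutant 1. Gcg was at 16.24, 28.13, 17.75, 7.02 and 24.36 FPKM in cage B and 5.10 to 8.90 in cage C, B mutant 1 alone overlapping (-1.20 ± 0.31). Ang4, an antimicrobial ribonuclease, was at 10.88 to 22.93 and 3.07 to 12.07 FPKM (-1.19 ± 0.32), and the transmembrane mucin Muc4 at 31.39 to 69.83 and 13.74 to 29.37, with no overlap (-0.85 ± 0.25, limma adjusted p = 1.00). Lpo, a lactoperoxidase chosen after its values were seen, was at 123.96 to 194.13 FPKM in cage B, 48.79 and 54.77 in C controls, 71.95 to 115.49 in C mutants, and 22.04 to 37.63 in cage A (-1.06 ± 0.24, limma adjusted p = 0.934).

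Smooth muscle genes had a median of -0.56, with 14 of 15 kept below 0 (44.2% of all genes). That median was -0.10 without B control 1, -0.23 without C control 2, -0.84 without B control 3, and 0.10 without B control 1 and B mutant 1. With both libraries left out the class II, cell division, goblet and clock medians were -1.46, -0.71, -0.84 and 0.51, in the same directions as with all 10.

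Of the single genes outside any list, Xpnpep2, a membrane aminopeptidase of the brush border, was higher in cage C. It was at 0.25, 2.54, 2.47, 1.80 and 2.77 FPKM in cage B and at 12.48, 16.95, 11.35, 28.00 and 9.78 in cage C. Every library of cage C was above every library of cages A (1.75 to 3.81) and B, and the difference was 2.46 ± 0.35 (limma adjusted p = 0.106). Adora2b, the adenosine A2b receptor, was near the floor in cage B at 0.00 to 0.31 FPKM and at 0.65 to 2.15 in cage C (1.06 ± 0.19, adjusted p = 0.403). Pla2g5, a secreted phospholipase, was at 1.12 to 2.55 and 0.19 to 1.01 FPKM (-0.98 ± 0.20, adjusted p = 0.545). None of the 3 overlapped.

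Some genes that vary between mouse strains split the libraries of cage B, which share the label of a mixed background. The list of strain-variable genes held 22, not all of which are present or absent by strain. Of these, 18 were in the table and 17 kept, with 15 above 0 in cage C (55.8% of all genes). At an unadjusted limma p under 0.05, 5 were higher (1.43% of all genes). Their median was 0.26, and 0.16 without B mutant 1. Several have near copies whose reads the counting could split. Nlrp1b, an inflammasome sensor, was at 0 in B controls 1 and 2 and B mutant 1, at 1.87 and 2.19 FPKM in B control 3 and B mutant 2, and at 2.57 to 3.69 in cage C (1.31 ± 0.36, limma adjusted p = 1.00). Eno1b, an enolase copy, was at 13.73, 4.90 and 14.56 FPKM in B controls, at 0 in both B mutants and all of cage A, and at 6.12 to 14.82 in cage C. The guanylate-binding protein gene Gbp2b was at 32.64 and 22.99 FPKM in B controls 1 and 2, at 0 in B control 3, at 6.87 and 32.52 in B mutants, at 9.12 to 22.82 in cage C and at 0.25 or less in cage A. The TRIM gene Trim12a was at 9.15 and 4.61 FPKM in B controls 1 and 2 and at 0 in the other 8 libraries, and Trim30d at 22.60 and 7.65 in those 2 and at 0.45 to 1.30 in the other 8.

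The descending libraries with the same cage, genotype and number repeated most of these patterns. Nlrp1b was at 0.05, 0.04, 3.92, 0 and 3.72 FPKM in descending cage B in the same order, Eno1b at 12.49, 6.89, 9.48, 0 and 0, Gbp2b at 7.04, 55.85, 0.05, 6.44 and 14.88, and Trim12a at 1.94, 3.88, 0, 0 and 0. The labels do not say that a number marks the same mouse in both regions. Ifi202b, a DNA sensor, was at 0, 12, 16.04, 0 and 16.04 FPKM in ascending cage B and at 15.32 to 20.62 in cage C, but at 0.90 or less in the descending colon of both cages. H2-T3 split the descending libraries in another way, at 5.84, 0.03, 0.08, 0.03 and 5.42 FPKM in cage B and 5.36 to 9.35 in cage C. Cage C was thus uniform for these genes, and cage B was not. B3gnt6, at 9.52 and 19.52 FPKM in B controls 1 and 2, was high in the same 2 libraries as Trim12a and Trim30d.

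**Figure D5:**
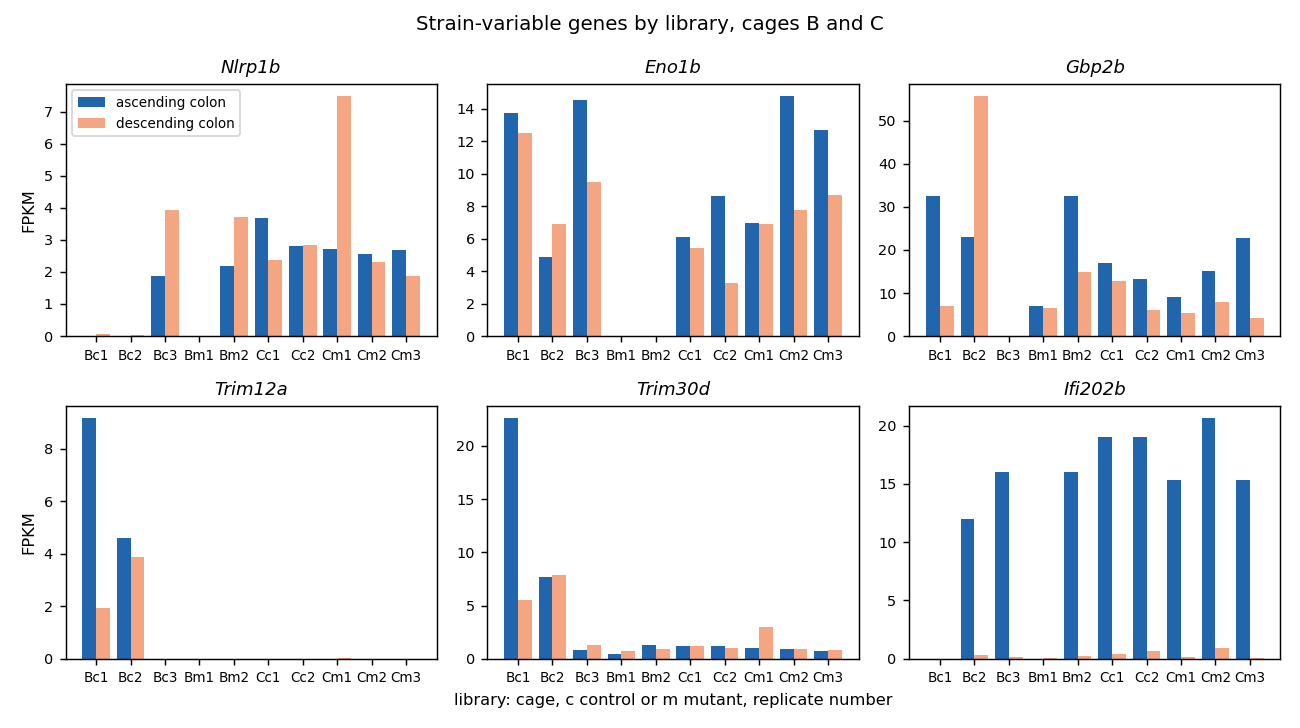
FPKM of 6 strain-variable genes in each library of cages B and C (c, control; m, mutant; number, replicate), with the ascending colon in blue and the descending in orange. Cage B holds libraries at or near 0 for each gene, and 5 of the 6 repeat their pattern in the descending colon, whereas Ifi202b is at 0.90 FPKM or less there.

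The class II difference was also measured in the descending colon. Of 12128 genes 4 passed there (0.033%), all class II and all lower in cage C: H2-Aa (-3.83 ± 0.46), H2-Ab1 (-3.58 ± 0.49), Cd74 (-3.57 ± 0.48) and H2-Eb1 (-2.91 ± 0.40), each at limma adjusted p = 0.0484. In 6 of the 12 class II genes kept there the cages did not overlap, against 0.536% of all genes (1.11% higher). H2-Aa was at 290.06, 454.04, 108.32, 185.33 and 60.57 FPKM in cage B and at 12.26, 11.10, 9.44, 16.94 and 4.68 in cage C. Descending B mutant 1, at 185.33, was not low. The calls lie close to the threshold and ended under several settings, among them the replicate block (0 genes, lowest adjusted p = 0.0751). At an unadjusted p under 0.05, 502 genes were higher and 229 lower (4.14 and 1.89%), and 300 and 370 with median-of-ratios scaling.

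Whether the cage difference depended on region was tested as an interaction over the 20 libraries. Of 12349 genes 0 passed (limma, lowest adjusted p = 0.836), and 266 had an unadjusted p under 0.05 (2.15%, with 0.753% higher and 1.4% lower). This fit took all libraries as independent. If same-numbered libraries of both regions share a mouse, the SEs and p-values given here ignore that pairing. With those libraries as blocks 0 genes passed too (limma, lowest adjusted p = 0.616). For H2-Aa the ascending difference was smaller by 0.79 ± 0.74 (unadjusted p = 0.30), and for Cd74 by 0.82 ± 0.70 (unadjusted p = 0.257), which does not show that the regions were alike. The 5 genes with the smallest p were 2310079G19Rik, Adora2b (1.11 ± 0.23, limma adjusted p = 0.836), Azgp1, Sbk1 and Cntln. Adora2b was at 0 to 0.31 FPKM in the descending colon of both cages. Xpnpep2 differed by 0.82 ± 0.19 there against 2.46 in the ascending colon. Its limma interaction was 1.64 ± 0.42 (adjusted p = 1.00). Cell division and goblet genes had medians of -0.08 and 0.10 in the descending colon. Interferon-stimulated genes had -0.22 there, with 37 of 45 below 0, and interferon-gamma targets -0.14, with 17 of 19 below 0. Over all genes there, 4784 of 12128 were below 0. These lists were not tested between the regions.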

How the data were processed

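Total RNA (1 µg) was depleted of ribosomal RNA and sequenced as single reads of 50 nt, per the labels' protocols. The authors deposited FPKM with 2 decimals for 14475 genes and 30 libraries; bcl2fastq 2.17, STAR, DESeq2 and GRCm38 (mm10) appear in the submitters' processing notes. No source used here names the gene counter, its strand setting or the annotation release. For 14472 genes the identifier was found in GENCODE M21, from which positions come. FPKM are not counts, so no count model was fitted.

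After the log2(FPKM + 1) transform of the deposited values, a gene was kept when its mean over the fitted libraries reached 0.5 FPKM. Cage and genotype were fitted in limma 3.58.1 (R 4.3.3) by lmFit, followed by eBayes with an intensity trend, two-sided, with Benjamini-Hochberg adjustment over all kept genes and a threshold of 0.05. Interactions used the same filter. The fits were also run on simulated data with independent noise. That noise set no library apart, unlike these data, so the run does not vouch for the results. Depth was estimated from low FPKM of genes of 300 to 2500 nt (up to 3 steps, 77.3 to 83.0% of low values within 0.2 of a step in these 10 libraries), and entered no fit.

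The members and the 40 gene lists were chosen with earlier results of these data known. Genes named are the 10 smallest p (as under 5 genes passed), all kept members of the class II, class I and interferon lists, up to 4 members of the other lists with the smallest adjusted p, C1galt1, B3gnt6 and the top 5 of each interaction; the text gives a selection of these, and further clock, T cell, strain-variable and marker genes it gives were chosen after their values were seen.

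Same-numbered libraries of cages B and C deviated together from their group means (correlation 0.165 to 0.452, 4 of 4 pairs over 0.1). In a group of 2 libraries these deviations mirror each other, so the pairs are not independent. Differently numbered pairs were not compared, so these values cannot show that the number pairs libraries. In case it does, a replicate block was fitted. With it 0 ascending genes passed (lowest adjusted p = 0.0510). Same-numbered ascending and descending libraries correlated at -0.258 to 0.358 (3 of 10 over 0.1), and both libraries of a group of 2 give the same value. Alternatives were another pseudocount (0.1), a filter at 2 FPKM or none, robust moderation, quantile normalization, scaling by median of ratios, array quality weights, the block, each library left out, no genotype covariate, each genotype alone and all 15 ascending libraries. Leaving out B control 1 and B mutant 1 together was added after seeing the data.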

Additional observations from a re-analysis of the deposited data

How the results depend on the processing

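Between the ascending cages 0 genes passed under the alternatives other than array quality weights (3 higher, 21 lower), mutants only (2 higher), all 15 ascending libraries (1 higher, 4 lower) and B control 1 with B mutant 1 left out (15 higher, 74 lower), and leaving out B mutant 1. With 1 library left out the count lower ranged from 0 to 5, the 5 coming without B mutant 1, and the count higher was 0. In the descending colon the 4 lower calls became 0 with a pseudocount of 0.1, no filter, quantile normalization, median-of-ratios scaling, robust moderation or the replicate block, and 12 lower and 5 higher with array quality weights; with 1 library left out the counts ranged from 0 to 4 lower and 0 to 1 higher. The region interaction gave 1 lower gene with array quality weights. The genotype interaction gave 1 higher gene with a pseudocount of 0.1 and 1 with B control 1 and B mutant 1 left out; with 1 library left out it ranged from 0 to 92 higher and from 0 to 227 lower, the highest without B mutant 2 and 1 (Eno1b) without B control 2. The causes were not tested.

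For 49 named genes, 1112 of 1121 values under the alternatives kept their direction and 38 passed. Those that reversed were Rfx5 in mutants (-0.064), Rfxap with array quality weights (-0.0045) and without B control 1 and B mutant 1 (-0.011), Ctss in controls (-0.072), H2-K1 and B2m in mutants (0.034 and 0.23), Isg15 without B mutant 1 (-0.30) and in controls (-0.60; it was 1.00 without B control 1), and Eno1b in controls (-0.42). The replicate block changed no ascending call. With 5 libraries a cage, 2 of them apart from the rest, and low values that move in steps at these depths, a p over the threshold does not show that the cages were alike for a gene.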
